A study of Mus musculus with 10 samples.

Results

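The genes described here serve the mucus of intestinal goblet cells and the O-linked sugars on it. They are 33 genes chosen by symbol, with no measured value in the rule, and comprise 9 secreted mucus components, 4 membrane mucins, 10 glycosyltransferase genes (the chaperone C1galt1c1 included), 3 transcriptional regulators and 7 secretory pathway or other goblet genes. Of the 33, 27 had a probe named for them among 16590 genes named on the array, and 14 were measured, meaning that the detection p, which sets a probe against the negative controls of its array, was under 0.05 on at least 5 of the 10 arrays. Over the whole array 8685 genes were measured in this sense.

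Goblet cells are the mucus-secreting cells of the intestinal epithelium. They fold gel-forming mucin in the endoplasmic reticulum, coat it with O-linked sugars in the Golgi and release it from granules together with smaller proteins, while membrane mucins coat the apical surface of the epithelium. The transcription factors Atoh1 and Spdef drive secretory fate and goblet cell maturation.

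The study compared mouse ileum that lacked interferon gamma (IFNg), the cytokine of T and natural killer cells that activates macrophages, with wild type ileum. Tissue was hybridised to Illumina bead arrays, 1 per sample, with 5 IFNg knockout (IFNgKO) and 5 wild type (WT) samples. All were from untreated C57Bl/6 males aged 8 weeks, housed free of specific pathogens on standard chow. The labels name 2 array sets, with 2 IFNgKO and 2 WT samples in set 1 and 3 of each genotype in set 2. The sources used here do not give the knockout allele or whether the controls were littermates, and whether every sample came from an animal of its own is not stated outright, so a p-value here speaks only of spread among the samples. Arrays detected 11469 to 12975 probes in IFNgKO samples and 10618 to 12549 in WT samples, which overlap (exact permutation test, two-sided, p = 0.151, n = 5 each). WT_641 stood apart, with a mean correlation with the other arrays of 0.949 (0.965 to 0.976 for the other 9) and an array weight of 0.28. The 2 probes of Ifng were detected on 0 arrays of either genotype, so they do not check the labels.

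Of the goblet cell genes, Clca1, Zg16, Spink4, Tff3, Agr2, Spdef, Ern2, Bcas1, Klk1, Sytl2 and Muc13 were detected on 5 of 5 IFNgKO and 5 of 5 WT arrays, as was the glycosyltransferase gene C1galt1. Detection in bulk tissue does not place a gene in goblet cells, and the members that were not measured are given below. The other measured genes were Creb3l1, detected on 5 of 5 IFNgKO and 2 of 5 WT arrays, and C1galt1c1, detected on 3 of 5 arrays of each genotype. Muc2, the gel-forming mucin that builds intestinal mucus, is not among the named probes and was not analysed here, and the same holds for Fcgbp, Muc3, Gcnt3, Capn9 and Tpsg1.

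A further 13 members had a named probe but were not measured, and 10 of them were detected on 0 arrays. These 10 were the secreted genes Retnlb and Tff1, the membrane mucin Muc4, the glycosyltransferase genes B3gnt6, Galnt3, Galnt4, Galnt7 and St6galnac1, the regulator Atoh1 and the anion channel gene Best2. Muc1 was detected on 1 of 5 IFNgKO and 0 of 5 WT arrays by 1 of its 4 probes, Galnt12 on 1 of 5 in each genotype, and Fut2 on 1 of 5 IFNgKO and 0 of 5 WT arrays. Apart from Fut2 in IFNgKO_648, raw intensities of these 17 probes lay between 65.5 and 117.5 in IFNgKO samples and between 67.0 and 113.0 in WT samples, where the median over all probes of an array was 100.4 to 111.8 in IFNgKO and 93.0 to 110.2 in WT samples. A probe without signal is not evidence of a silent gene: the probes of Fabp1 and Fabp2, fatty acid binding proteins of enterocytes, were also detected on 0 of 10 arrays. The gastric and duodenal gland markers, among them the stomach mucin gene Muc5ac and the gland mucin gene Muc6, were likewise detected on 0 arrays, with 0 of 10 listed genes measured.

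**Figure D1:**
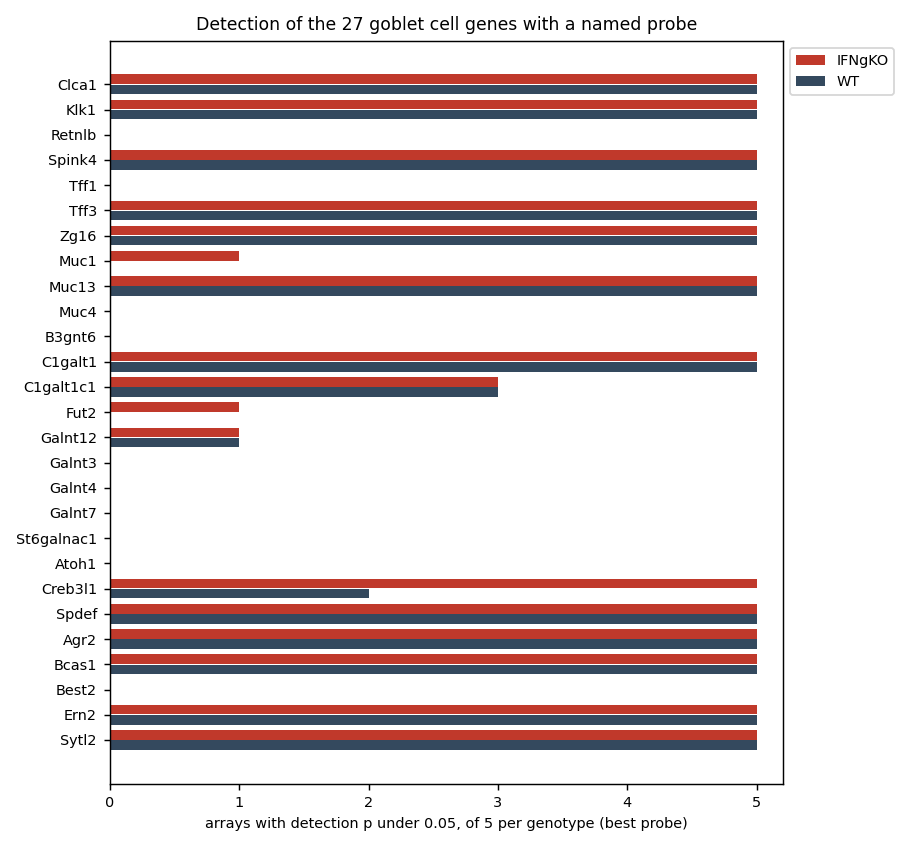
Number of arrays, of 5 per genotype, on which the best probe of each of the 27 genes with a named probe had a detection p under 0.05, IFNgKO bars above WT bars. Of these genes, 12 were detected on all 10 arrays and 10 on none, and Creb3l1 was detected on 5 IFNgKO and 2 WT arrays.

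Of the 14 measured genes, 0 differed between IFNgKO and WT ileum at an adjusted p under 0.05 (limma with array set fitted, Benjamini-Hochberg over 12039 probes), where 0.0115% of all measured genes and 0.0166% of all tested probes did. At an unadjusted p under 0.05 there were 3 of 14, namely Spink4, Klk1 and Bcas1, all higher in IFNgKO ileum, and 0 lower. Over all measured genes 5.63% were higher and 6.67% lower by that rule. The fitted log2 difference, IFNgKO minus WT, was above 0 for 9 of 14 and below 0 for 5, against 49.8% above 0 over all measured genes, and its median was 0.12 against -0.001 over all measured genes. Under median scaling in place of quantile normalisation the median of all tested probes was 0.19 and that of the 14 genes 0.25. Creb3l1, 1 of the 9, passed the filter through the IFNgKO arrays. The median was 0.0637 without WT_640, 0.0705 without WT_641, 0.074 without WT_642, 0.0773 without IFNgKO_649 and 0.195 without IFNgKO_647. In bulk tissue, a change in the number of goblet cells and a change in RNA per goblet cell cannot be told apart.

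**Figure D2:**
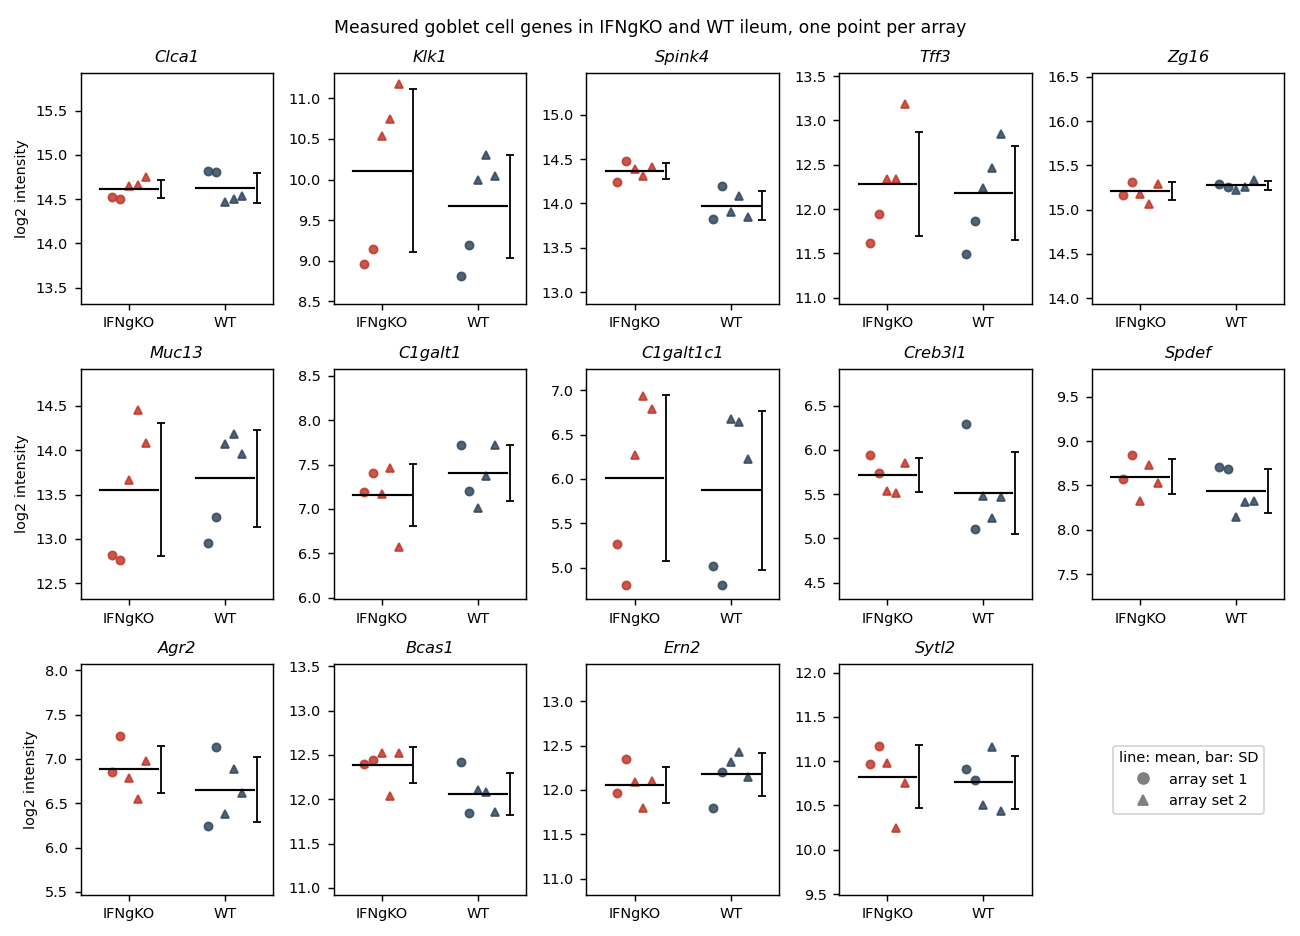
Log2 intensity of the 14 measured genes on each array, IFNgKO on the left and WT on the right of each panel, with circles for array set 1 and triangles for array set 2. Horizontal lines are means and bars SD (n = 5 each). For Spink4 alone the lowest IFNgKO sample (14.24) lies above the highest WT sample (14.20), and Klk1, Tff3, Muc13 and C1galt1c1 part by array set within each genotype.

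Spink4, a Kazal-type protease inhibitor secreted with mucus, had log2 intensities of 14.24, 14.48, 14.39, 14.31 and 14.41 in IFNgKO_645 to IFNgKO_649, against 13.83, 14.20, 13.91, 14.09 and 13.85 in WT_640 to WT_644. All 5 IFNgKO samples lay above all 5 WT samples, by a narrow margin against WT_641, and 0.829% of all measured genes showed such a separation upward. Of the 14 genes, 0 had all IFNgKO samples below all WT samples, against 0.679% of all measured genes. The means were 14.36 ± 0.09 in IFNgKO and 13.97 ± 0.16 in WT ileum (SD, n = 5 each). The fitted difference was 0.39 ± 0.13 (SE), a 1.31-fold ratio with a 95% interval of 1.09 to 1.58, and its adjusted p was 0.286 (limma). Within the sets it was 0.34 (set 1) and 0.42 (set 2). Leaving out any 1 sample gave 0.34 to 0.45. Separation within each array set follows from the separation over all samples and adds no further support. Spink4 was the 1 gene of 14 that showed it, as 2.27% of all measured genes did.

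Klk1, the tissue kallikrein, a secreted serine protease, had log2 intensities of 8.96 and 9.14 in the IFNgKO samples of array set 1, against 8.81 and 9.20 in its WT samples. In array set 2 the values were 10.54, 10.74 and 11.18 in IFNgKO samples, against 9.9999, 10.30 and 10.04 in WT samples. Thus the genotypes overlapped in array set 1 and did not in array set 2. How many of all measured genes part within a single array set was not counted. The fitted difference was 0.44 ± 0.17 (SE; 95% interval 0.06 to 0.82; adjusted p = 0.361, limma), or 0.04 within set 1 and 0.70 within set 2. The interaction of genotype and array set had an unadjusted p of 0.0621 and an adjusted p of 0.999 (limma). At an adjusted p under 0.05 for it, 0% of all measured genes passed. Without IFNgKO_649, the highest, the difference was 0.31, and without WT_641 it was 0.56. Klk1 belongs to a large family of close mouse paralogs, and how far its probe tells them apart was not tested.

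Zg16, a lectin-like granule protein that binds bacteria, was the steadiest of the 14 genes. Its log2 intensities were 15.17, 15.32, 15.18, 15.07 and 15.29 in IFNgKO_645 to IFNgKO_649, against 15.29, 15.25, 15.22, 15.25 and 15.34 in WT_640 to WT_644. The genotypes overlapped, and the residual SD of 0.08 ranked among the lowest 0.631% of all measured probes. The difference was -0.07 ± 0.11 (SE), with a 95% interval of -0.31 to 0.18 (0.81-fold to 1.13-fold; adjusted p = 0.838, limma). Raw intensities of the probe were 35284.2 to 42839.6 in IFNgKO and 34132.0 to 44416.4 in WT samples. They approach the brightest probe of an array, at 43713.6 to 54863.2 in IFNgKO and 41861.7 to 57950.9 in WT samples, and whether the signal was saturated was not tested.

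Clca1, a metalloprotease-like protein that processes Muc2 in the mucus, had log2 intensities of 14.52, 14.50, 14.64, 14.67 and 14.75 in IFNgKO_645 to IFNgKO_649, against 14.82, 14.81, 14.46, 14.50 and 14.54 in WT_640 to WT_644. Within array set 1 both IFNgKO samples lay below both WT samples, and within array set 2 all 3 IFNgKO samples lay above all 3 WT samples. The share of all measured genes that part this way within a set was not computed, and each set holds few samples per genotype. Within the sets the differences were -0.30 (set 1) and 0.18 (set 2). The fitted one was -0.01 ± 0.13 (SE; 95% interval -0.28 to 0.26; adjusted p = 0.984, limma), and 0.10 under median scaling. The interaction had an unadjusted p of 0.0612 and an adjusted p of 0.999 (limma). Tff3, the trefoil peptide of goblet cells that supports epithelial repair, ranged from 11.62 to 13.19 in IFNgKO and from 11.49 to 12.85 in WT samples, with a difference of 0.11 ± 0.19 (adjusted p = 0.849). IFNgKO_649 was the highest for Tff3, and without it the difference was -0.05.

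Averaged over the 5 measured secreted genes, each centred on its mean over the 10 samples, the log2 level was -0.33, -0.15, 0.19, 0.19 and 0.53 in IFNgKO_645 to IFNgKO_649, against -0.38, -0.17, -0.07, 0.09 and 0.09 in WT_640 to WT_644. The 4 samples of array set 1 were the lowest of the 10, whatever their genotype. This rests on Klk1 and Tff3, whose differences of array set 2 minus array set 1 were 1.44 and 0.84. Those of Clca1, Zg16 and Spink4 were -0.07, -0.03 and -0.03. Within array set 2 the average of each IFNgKO sample lay above that of each WT sample. By gene, the genotype differences within set 2 were 0.70 for Klk1, 0.42 for Spink4, 0.18 for Clca1, 0.11 for Tff3 and -0.09 for Zg16. The average is given as a description with no test, and no share over all genes was computed for it.

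**Figure D3:**
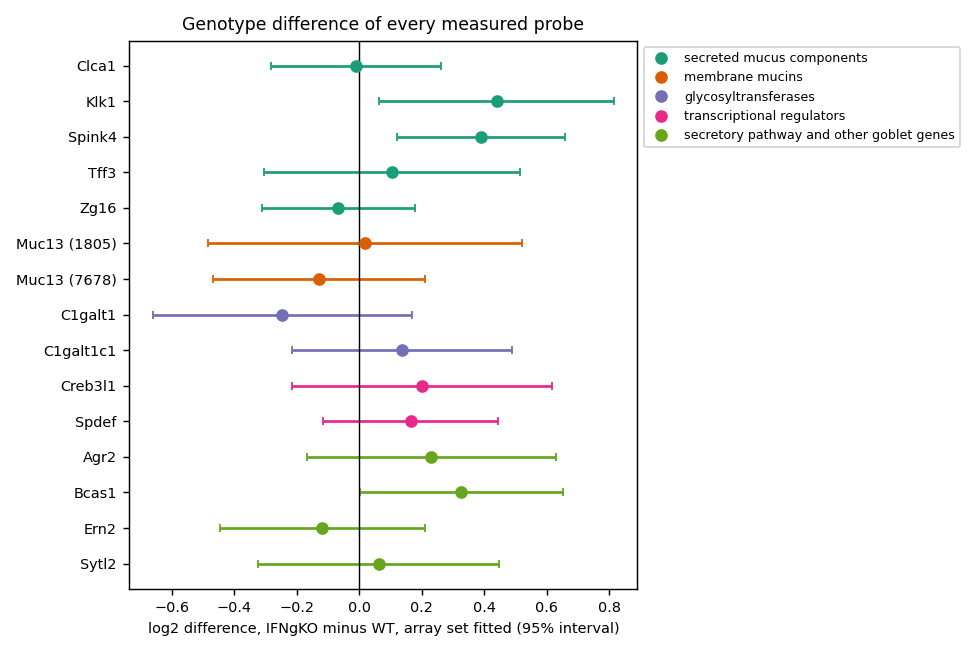
Fitted log2 difference, IFNgKO minus WT with array set fitted, for each of the 15 measured probes, with 95% intervals, coloured by role. The Muc13 probes are told apart by their last 4 digits. Intervals of Spink4, Klk1 and Bcas1 lie above 0 and those of the other 12 probes include 0. The intervals are not adjusted for the number of probes.

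Of the membrane mucins only Muc13, a transmembrane mucin of the brush border, was measured, and its 2 probes went different ways with array set. Probe ILMN_2717678, which stands for the gene in counts, had log2 intensities of 12.76 to 14.45 in IFNgKO and 12.96 to 14.19 in WT samples, with a genotype difference of -0.13 ± 0.16 (SE; 95% interval -0.47 to 0.21; adjusted p = 0.766, limma). The other, ILMN_2681805, had 12.13 to 13.30 in IFNgKO and 12.49 to 13.49 in WT samples, with a difference of 0.02 ± 0.23 (-0.48 to 0.52; adjusted p = 0.984). Genotypes overlapped on both probes.

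The measured glycosyltransferase genes were C1galt1, which adds galactose to the first sugar to form the core 1 O-glycan, and C1galt1c1, which encodes Cosmc, the chaperone that enzyme needs. C1galt1 had log2 intensities of 6.57 to 7.46 in IFNgKO and 7.01 to 7.72 in WT samples, which overlap, and a difference of -0.25 ± 0.19 (SE; 95% interval -0.66 to 0.17; adjusted p = 0.624, limma). Its lowest value, 6.57, was that of IFNgKO_649, and without it the difference was -0.10. C1galt1c1 was detected on the 6 arrays of array set 2 and on 0 of 4 arrays of array set 1. In array set 2 its log2 intensities were 6.27, 6.93 and 6.78 in IFNgKO samples, against 6.67, 6.64 and 6.22 in WT samples, and its fitted difference over both sets was 0.14 ± 0.16 (adjusted p = 0.759).

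Among the regulators, Spdef, the factor of goblet cell maturation, had log2 intensities of 8.32 to 8.85 in IFNgKO and 8.15 to 8.71 in WT samples. These overlap, and the difference was 0.16 ± 0.13 (SE; 95% interval -0.12 to 0.44; adjusted p = 0.626, limma), or 0.02 within set 1 and 0.26 within set 2. Creb3l1, a transcription factor released from the endoplasmic reticulum membrane, had 5.51 to 5.94 in IFNgKO and 5.10 to 6.29 in WT samples. Its WT values surrounded the IFNgKO values, with WT_640 the highest of the 10 and WT_641 the lowest. The difference was 0.20 ± 0.19 (-0.21 to 0.62; adjusted p = 0.696), but 0.39 without WT_640 and 0.0284 without WT_641. The gap in detection, 5 of 5 IFNgKO against 2 of 5 WT arrays, stood beside 12197.4 ± 622 detected probes per IFNgKO array and 11475.6 ± 781 per WT array (SD, n = 5 each). Its part in the gap was not tested.

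The windows around the gene starts, 250 bases before to 50 bases after, were read from RefSeq on build GRCm38.p6 for the regulator Spdef, for Agr2 and for Klk1, the measured gene with the largest fitted difference, to show the letters of these promoters. A RefSeq window was held for 15 of the 33 genes, 5 of them measured. They were searched for the E-box core CAGNTG on both strands (CANCTG on the other), and CAGCTG, which fits both, counts once. This core is the kind of site that Atoh1 and other basic helix-loop-helix factors bind. Capitals mark its matches, and each sequence runs 5′ to 3′ on the strand of its gene.
Klk1, chr7:44225110-44225409, plus strand: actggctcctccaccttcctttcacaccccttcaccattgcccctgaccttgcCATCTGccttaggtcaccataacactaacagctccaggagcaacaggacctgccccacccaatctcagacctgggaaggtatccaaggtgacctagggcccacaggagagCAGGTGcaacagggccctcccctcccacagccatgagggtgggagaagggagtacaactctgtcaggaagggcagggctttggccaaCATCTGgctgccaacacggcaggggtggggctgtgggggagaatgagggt
Agr2, chr12:35992675-35992974, plus strand: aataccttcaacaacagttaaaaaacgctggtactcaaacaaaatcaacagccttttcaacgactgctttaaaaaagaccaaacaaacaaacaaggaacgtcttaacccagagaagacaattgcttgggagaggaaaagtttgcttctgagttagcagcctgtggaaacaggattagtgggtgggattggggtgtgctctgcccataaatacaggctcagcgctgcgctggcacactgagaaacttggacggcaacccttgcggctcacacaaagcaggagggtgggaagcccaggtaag
Spdef, chr17:27728902-27729201, minus strand: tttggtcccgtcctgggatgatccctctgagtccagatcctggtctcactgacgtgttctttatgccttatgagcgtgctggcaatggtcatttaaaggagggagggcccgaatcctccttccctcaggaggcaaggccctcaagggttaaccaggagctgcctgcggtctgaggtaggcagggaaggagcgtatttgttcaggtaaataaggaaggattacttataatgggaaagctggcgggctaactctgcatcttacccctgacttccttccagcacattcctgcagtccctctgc
The Klk1 window held 3 matches, and those of Agr2 and Spdef held 0. Of the 5 measured genes with a window, 3 held a match in at least 1 window (Klk1, C1galt1 and Muc13). Counted by window, 4 of their 6 windows held a match, against 51.4% of 32851 RefSeq windows of the same length. A match here describes letters only, and the arrays measured no binding.

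Bcas1, a gene used as a goblet cell marker, had log2 intensities of 12.40, 12.45, 12.52, 12.04 and 12.52 in IFNgKO_645 to IFNgKO_649, against 12.42, 11.84, 12.10, 12.08 and 11.85 in WT_640 to WT_644. The groups overlapped through IFNgKO_648 on the low side and WT_640 on the high side. The difference was 0.33 ± 0.15 (SE; 95% interval 0.003 to 0.65; adjusted p = 0.407, limma), or 0.29 within set 1, 0.35 within set 2, and 0.24 without WT_641. Ern2, the endoplasmic reticulum stress sensor of mucus-secreting epithelia, ranged from 11.80 to 12.34 in IFNgKO and from 11.79 to 12.43 in WT samples. Its difference was -0.12 ± 0.15 (adjusted p = 0.782), or 0.16 within set 1, -0.30 within set 2 and 0.0636 under median scaling.

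Agr2, a protein disulfide isomerase needed to fold Muc2, had log2 intensities of 6.54 to 7.26 in IFNgKO and 6.24 to 7.14 in WT samples, with a difference of 0.23 ± 0.18 (SE; 95% interval -0.17 to 0.63; adjusted p = 0.633, limma). It was 0.0709 without WT_640, 0.15 without IFNgKO_646 and 0.35 without WT_641. Sytl2, a Rab27 effector of granule docking, had 10.24 to 11.17 in IFNgKO and 10.44 to 11.16 in WT samples by its 1 measured probe, with a difference of 0.06 ± 0.18 (-0.32 to 0.45; adjusted p = 0.91). The groups overlapped for both genes, and the other 2 Sytl2 probes were detected on 0 arrays.

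Over the 14 genes the 95% intervals, which are not adjusted for the number of probes, reached 0.24 to 0.42 log2 units to each side of the difference. After adjustment 0 of the 14 differences could be told from 0 at this number of arrays. The lowest adjusted p was 0.286 (limma). Leaving out any 1 sample gave -0.25 to -0.0370 for Muc13, 0.0576 to 0.24 for C1galt1c1, 0.0961 to 0.23 for Spdef and -0.22 to -0.0389 for Ern2. Of the 14 interactions of genotype and array set, 0 had an unadjusted p under 0.05, where 2.74% of all measured genes did.

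Some of these genes differed between the array sets. Of the 14 genes 4 differed between the sets at an adjusted p under 0.05 (limma, genotype fitted), all 4 higher in array set 2, where 18.4% of all measured genes differed, 12% higher and 6.40% lower. The filter of 5 arrays can be met by array set 2 alone but not by array set 1 alone, so it favours genes higher in array set 2. C1galt1c1, 1 of the 4, passed it through array set 2 alone, and its place in this count rests on that. C1galt1c1 spanned 6.22 to 6.93 in array set 2 and 4.81 to 5.27 in array set 1, where it was not above background on any array, so the size of its difference is only bounded. Klk1 spanned 9.9999 to 11.18 in array set 2 and 8.81 to 9.20 in array set 1 (1.44), and Tff3 12.23 to 13.19 and 11.49 to 11.94 (0.84). For these 3 genes the sets did not overlap. Muc13 probe ILMN_2717678 also parted the sets, at 13.66 to 14.45 in array set 2 and 12.76 to 13.25 in array set 1 (1.12, adjusted p = 0.000217), whereas the other Muc13 probe overlapped, at 12.13 to 13.30 and 12.49 to 13.49 (-0.24, adjusted p = 0.493). The 2 probes of this 1 gene thus gave unlike set differences, and the labels do not say what sets these arrays apart.

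**Figure D4:**
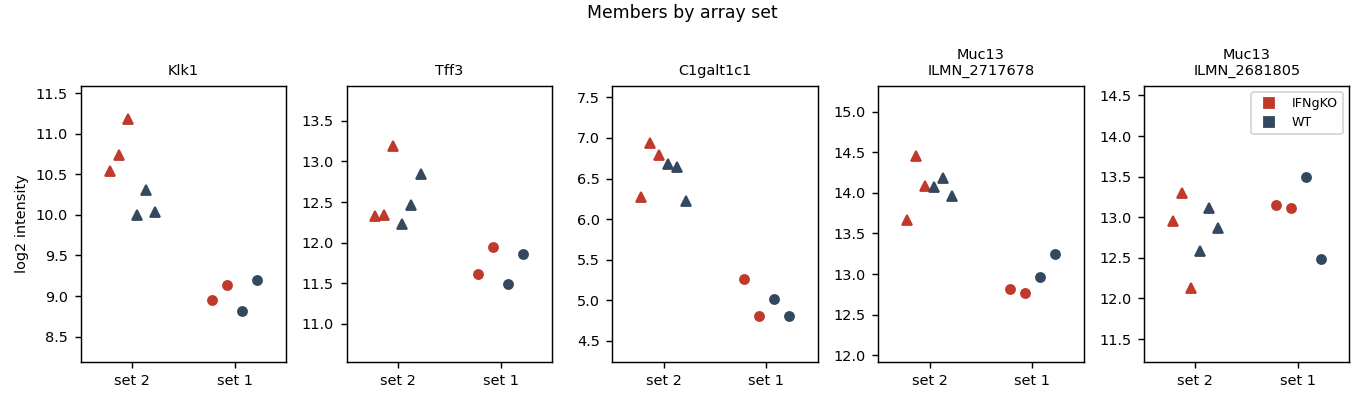
Log2 intensity per array of Klk1, Tff3, C1galt1c1 and both Muc13 probes, with array set 2 on the left and array set 1 on the right of each panel and colours for genotype. The sets do not overlap in the 4 left panels and overlap for Muc13 probe ILMN_2681805.

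Other genes of the pathway were read from 4 lists. Of 24 measured genes among 38 listed for other steps of O-glycan and terminal sugar synthesis, 12 were higher and 12 lower, with a median of 0.02, and 0 passed an adjusted p of 0.05 (limma), while 2 had an unadjusted p under 0.05, both higher, where 5.63% of all measured genes were. These were St6gal1, a sialyltransferase, at 0.61 ± 0.21 (SE; adjusted p = 0.308) and Fut4, a fucosyltransferase that makes Lewis x sugars, at 0.37 ± 0.14 (0.341). Fut4 had log2 intensities of 9.33 to 9.64 in IFNgKO samples, all above the 8.82 to 9.32 of WT samples, a separation that 0.829% of all measured genes showed. The margin was close to a tie, with 9.326 in IFNgKO_645 against 9.323 in WT_640. B4galt3, a galactosyltransferase, was at -0.26 ± 0.16 and B3gnt7, which extends sugar chains with N-acetylglucosamine, at 0.29 ± 0.19. B3gnt7 was detected on 5 of 5 IFNgKO and 2 of 5 WT arrays, so it passed the filter through the IFNgKO arrays, and its place among the 12 higher genes rests on that.

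Of 13 measured genes that supply nucleotide sugars, 10 were higher and 3 lower with a median of 0.09. Over all measured genes 49.8% were above 0. At an adjusted p of 0.05 (limma) 0 passed, where 0.0115% of all measured genes did. At an unadjusted p under 0.05 there were 2, both higher, where 5.63% of all measured genes were. Ugp2, which makes UDP-glucose, was at 0.38 ± 0.13 (SE; adjusted p = 0.314, limma), and Slc35a1, the Golgi carrier of CMP-sialic acid, at 0.47 ± 0.21 (0.408). Slc35a1 also differed by 1.95 between the array sets. The fucose kinase gene Fcsk was at 0.24 ± 0.11 and Gmds, of GDP-fucose synthesis, at 0.26 ± 0.14.

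Of 14 measured secretory fate genes, 6 were higher and 8 lower (median -0.02), and 0 had an unadjusted p under 0.05. The lowest p belonged to Elf3, an epithelial transcription factor (-0.35 ± 0.17 SE, adjusted p = 0.424, limma). Next came the Notch ligand gene Dll4 (0.28 ± 0.17, detected on 5 IFNgKO and 3 WT arrays) and the enteroendocrine factor gene Neurog3 (-0.22 ± 0.14). The receptor gene Notch1 (0.31 ± 0.21) was detected on 3 arrays of each genotype and differed by 1.55 between the array sets. Its genotype difference was -0.06 within set 1 and 0.56 within set 2. Of 10 measured genes for granule release and for the salt and fluid that hydrate mucus, 5 were higher and 5 lower (median 0.02). At an adjusted p of 0.05 (limma) 0 passed. At an unadjusted p under 0.05 there was 1, which was lower, where 6.67% of all measured genes were. This was Slc26a6, an exchanger of chloride for bicarbonate (-0.32 ± 0.14; adjusted p = 0.384), and Snap23, Mep1b and Slc12a2 were at 0.26 ± 0.20, -0.14 ± 0.12 and 0.12 ± 0.14.

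Markers of other cells in the same tissue were read beside these genes, as log2 of their summed intensity and as fitted differences, and their part in the values above was not tested. Counts at an unadjusted p under 0.05 in these lists stand against 5.63% higher and 6.67% lower over all measured genes, and 0 marker genes passed an adjusted p of 0.05 (limma). In the Paneth cell, tuft cell and smooth muscle lists 0 genes had an unadjusted p under 0.05. Paneth cell markers summed to 17.69 to 17.78 in IFNgKO and 17.68 to 17.92 in WT samples, with 1 of 9 measured genes higher and a median of -0.07, and the lowest p was that of Reg3g (-0.49 ± 0.32, SE). Enterocyte markers summed to 17.11 to 17.36 in IFNgKO and 16.98 to 17.36 in WT samples (4 of 9 higher, median -0.08, 2 lower at an unadjusted p under 0.05), and the lowest p was that of Apoa4 (-1.21 ± 0.47, SE; adjusted p = 0.355, limma). Both lists overlapped between genotypes. Tuft cell markers summed to 9.31 to 9.82 in IFNgKO and 9.40 to 10.06 in WT samples (1 of 4 higher, median -0.09), with Alox5ap at -0.28 ± 0.17 (SE) and Pou2f3, their defining factor, detected on 0 arrays.

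Stem and cycling crypt markers summed to 12.92 to 13.32 in IFNgKO and 12.65 to 13.02 in WT samples (7 of 9 higher, median 0.23, 3 higher at an unadjusted p under 0.05), with Tyms at 0.75 ± 0.15 (SE; adjusted p = 0.175, limma). Enteroendocrine markers summed to 13.82 to 14.04 in IFNgKO and 13.50 to 13.96 in WT samples (7 of 9 higher, median 0.13, 2 higher at an unadjusted p under 0.05), with the hormone gene Gcg at 1.06 ± 0.24 (adjusted p = 0.209). T cell markers summed to 8.27 to 9.23 in IFNgKO and 8.13 to 8.40 in WT samples, with Cd8a detected on 0 arrays. Of the 4 measured, Cd8b1, with the lowest p, was detected on 4 of 5 IFNgKO arrays and 1 of 5 WT arrays. It passed the filter mainly through the IFNgKO arrays, so its difference is not given, though the T cell sums include it. The other 3 were detected on all 10 arrays and were higher at an unadjusted p under 0.05. They differed by 0.60 (Cd3g), 0.47 (Cd3d) and 0.42 (Cd3e). Smooth muscle markers summed to 16.46 to 16.66 in IFNgKO and 16.02 to 16.64 in WT samples (8 of 9 higher), with Tagln at 0.46 ± 0.23 (SE) and list medians of -0.17 (set 1) and 0.39 (set 2). All these ranges overlapped between genotypes. Of the colon markers 0 of 2 on the array were detected, Aqp8 and Hoxb13.

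**Figure D5:**
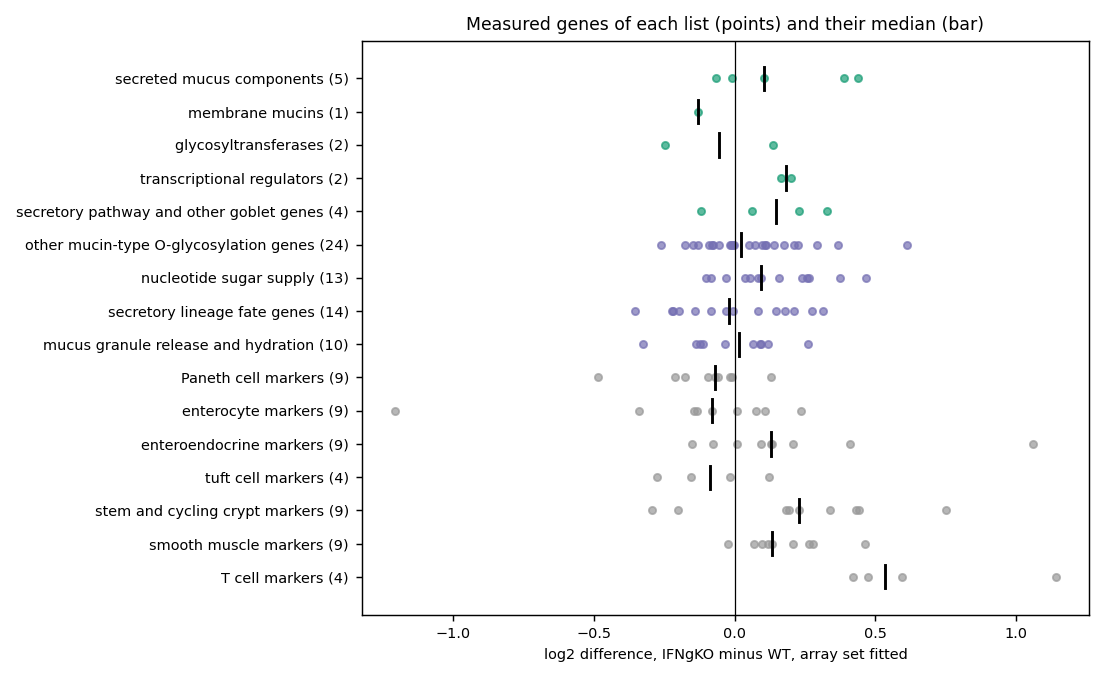
Fitted log2 difference, IFNgKO minus WT, of each measured gene (points) and the median of each list (bars), with the goblet cell genes by role at the top, pathway lists below them and markers of other cell types at the bottom. Numbers in brackets count measured genes. The T cell point farthest to the right is Cd8b1, detected on 1 WT array, and the T cell median includes it. Medians of the goblet cell roles lie between -0.13 and 0.18.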

How the data were processed

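Each of the 10 samples was measured on 1 Illumina mouse bead array. The deposited non-normalised table gives each probe on each array, per the file headers, an intensity on a linear scale, from which no background has been taken off as far as the values show, and the authors deposited a detection p-value next to it. The authors' value table holds linear intensities that are quantile normalised between arrays, as read from its values. Per the submitters' processing notes lumi was used, in a role and version not stated, and the sources used here do not give a genome build.

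The neqc function of limma 3.58.1 (R 4.3.3) then applied a normexp correction, reading the level of the negative controls out of the detection p-values, an offset of 16, quantile normalisation and log2. Of 25697 probes, 12039 were tested, those detected (p under 0.05) on 5 arrays or more. Platform symbols were updated by a RefSeq gene table (GRCm38.p6), which matched 23971 of 23978 named probes and updated 8. A gene is read from its brightest tested probe, and every other tested probe of a goblet cell gene is given as well.

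IFNgKO was compared with WT in limma's lmFit and eBayes, adding a term for array set, with p-values adjusted by Benjamini-Hochberg over all tested probes at 0.05. Differences are log2 IFNgKO minus WT, and levels are mean ± SD with n = 5 per group. The members, lists and tests were chosen with earlier results of these data known. Lists are described by counts and medians, with no test. Values in every sample are given for members with an unadjusted p under 0.05, for the 3 brightest secreted members and for members whose groups do not overlap, with the 4 lowest p of each pathway list and the lowest of each marker list. Alternatives left out each sample in turn, or varied how array set, low probes, several probes of a gene, background, scaling, variance and array weights were treated, and 1 used the authors' value table. The fit was tested on simulated data. No array was left out, and the number of arrays limits the precision.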

Additional observations from a re-analysis of the deposited data

Results flagged for a closer look

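Among 68 groups of 5 samples (34 probes of the goblet cell genes in 2 genotypes), 4 held a sample far from the other 4 by Dixon's test, where chance alone gives about 1 in 20 groups. Fut2, the fucosyltransferase that makes the H antigen on mucins, had a log2 intensity of 7.03 in IFNgKO_648, against 4.80 to 5.19 in the other IFNgKO samples. Its raw intensity there was 227.1, and no other array detected this probe. Bcas1 was at 12.04 in IFNgKO_648, below the 12.40 to 12.52 of the other IFNgKO samples. The other 2 were probes without detection: Best2 at 4.91 in WT_641 (4.61 to 4.68 in the other WT samples) and Sytl2 probe ILMN_2589803 at 5.07 in IFNgKO_649 (4.78 to 4.84 in the other IFNgKO samples).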

How the results depend on the processing

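In all 23 alternatives 0 of the measured goblet cell genes passed an adjusted p of 0.05 (limma). Spink4, Klk1, Bcas1, Agr2, Spdef, Creb3l1 and C1galt1c1 kept a positive difference wherever they were tested, and Zg16, Muc13 and C1galt1 a negative one. C1galt1c1 was not detected on any array of array set 1, so its sign there describes values at background. The lowest adjusted p of any measured goblet cell gene was 0.155 (limma), for Klk1 under median scaling. The count at an unadjusted p under 0.05, 3 as reported, was 5 under median scaling (Agr2 and Spdef added), 1 without the array set term and 0 in array set 1 alone, and 1 to 4 without any 1 sample. It was 1, Spink4, without WT_642, WT_644 or IFNgKO_649. Median scaling put the median of all tested probes at 0.19 and that of the goblet cell genes at 0.25, turning Clca1 to 0.10 and Ern2 to 0.0636. Clca1 also turned to 0.18 in array set 2 alone and to 0.00421 with array weights, and spanned -0.0533 to 0.0371 without any 1 sample. Ern2 was at 0.16 in array set 1 alone. Sytl2 was at -0.0433 in array set 2 alone and spanned -0.0121 to 0.20 without any 1 sample, and Tff3 spanned -0.0497 to 0.20. The number of probes called over the array, 2 as reported, was 10 under median scaling, 5 in the authors' value table, 4 with a robust trended variance, 1 with detection on all 10 arrays or without the array set term, 0 in either array set alone, and 1 to 3 without any 1 sample. The cause of these shifts was not tested, and a single array set also holds fewer samples. Creb3l1 and C1galt1c1 had no value with detection on all 10 arrays, nor Creb3l1 with a detection p under 0.01. No paired analysis was possible because the genotypes share no replicate number.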
